A study of Mus musculus with 2 samples.

Results

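Dazl, Ddx4, Mael, Tdrd1, Sycp1, Sycp3, Stra8, Dppa3, Figla and Zp3 are genes whose products work in germ cells, meiosis or the oocyte. These 10 genes, taken from 21755 protein-coding genes on chromosomes 1 to 19 and X, were taken by name, with no threshold on a measured value. Their chromatin was described in DNase-seq data, in which DNase I cuts open DNA and the cut sites are sequenced, from the midbrain of B6NCrl mouse embryos at day 11.5. The samples formed a single group of 2 biological replicates. Male and female embryos, recorded as healthy, were mixed within each, and both had the same donor record but separate biosample records. There was no germ cell sample, treated group or control, so all values below are descriptions of these 2 libraries and no test was made. Their libraries went through different sets of Illumina instruments, so instrument and replicate cannot be told apart.

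Many germline genes have CpG-rich promoters, yet in somatic cells these promoters gain DNA methylation in the early embryo and stay silent, in contrast to most CpG islands. In mouse cells a repressor complex of the Polycomb family, PRC1.6, is recruited to many of them by MGA with MAX, which bind the E-box CACGTG, and by E2F6, which binds the core TCCCGC. H3K9 methyltransferases and DNA methyltransferases act on the same group of promoters. DNA methylation, histone marks, protein binding and RNA were not measured here, so the term methylation-prone is background and was not checked.

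A gene is called open below when both replicates had a deposited peak at most 500 bp from one of its annotated transcription start sites (TSSs), and closed when neither had. Only Dazl and Sycp3 of the 10 genes were open by this rule. Tdrd1 had a TSS peak in replicate 1 alone, and Ddx4, Mael, Sycp1, Stra8, Dppa3, Figla and Zp3 had none in either replicate. The share of open genes was therefore 20% among the 10, against 65.5% of all protein-coding genes (14247 of 21755). The peaks at Dazl were strong and those at Sycp3 were among the weakest at any TSS.

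Sequences from some of these genes are given below. Different letters are in capitals in each set, and a link between the letters and openness was not tested. The following are the sequences of the sites shared by both replicates at Dazl, read from mm10 on the minus strand, which is the strand of the gene. CG dinucleotides are in capitals. Open genes were more frequent among those with CpG-rich start sites, but the closed genes Ddx4, Sycp1 and Mael are CpG-rich as well. The inner site also holds 1 TCCCGC, which is not marked here. The inner site is chr17:50292756-50292965 and the outer site is chr17:50293496-50293725.
Dazl inner site: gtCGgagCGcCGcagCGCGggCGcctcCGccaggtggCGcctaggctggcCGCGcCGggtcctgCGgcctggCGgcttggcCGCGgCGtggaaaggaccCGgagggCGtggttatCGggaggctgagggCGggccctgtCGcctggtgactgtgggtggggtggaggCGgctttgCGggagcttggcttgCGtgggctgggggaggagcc
Dazl outer site: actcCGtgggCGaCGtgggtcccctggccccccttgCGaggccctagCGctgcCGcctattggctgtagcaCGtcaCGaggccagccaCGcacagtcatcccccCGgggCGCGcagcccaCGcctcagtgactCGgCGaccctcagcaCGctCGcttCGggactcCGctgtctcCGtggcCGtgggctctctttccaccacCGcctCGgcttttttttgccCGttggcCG

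The next set holds promoters of genes that were closed, weak or seen in 1 replicate, from RefSeq on GRCm38.p6, running from 250 bases before to 50 bases after the start site on the strand of the gene. They are shown because Ddx4, Sycp1, Mael and Sycp3 hold both CACGTG and TCCCGC, and Tdrd1 holds CACGTG where its replicate 1 peak lay. The closed gene Zp3 also holds both, in a promoter with 7 CpG, and is not shown. CACGTG and TCCCGC are in capitals on either strand (CACGTG reads the same on both, and TCCCGC reads GCGGGA on the other). The promoters shown lie at chr13:112652261-112652560 (minus strand, Ddx4), chr3:102936051-102936350 (minus strand, Sycp1), chr1:166238695-166238994 (minus strand, Mael), chr10:88459337-88459636 (plus strand, Sycp3) and chr19:56825959-56826258 (plus strand, Tdrd1).
Ddx4: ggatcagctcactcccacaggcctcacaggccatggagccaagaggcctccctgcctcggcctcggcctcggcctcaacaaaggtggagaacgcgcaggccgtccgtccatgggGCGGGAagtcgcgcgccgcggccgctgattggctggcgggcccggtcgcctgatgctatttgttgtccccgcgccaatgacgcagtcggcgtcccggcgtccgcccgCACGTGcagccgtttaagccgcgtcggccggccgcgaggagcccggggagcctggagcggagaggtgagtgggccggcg
Sycp1: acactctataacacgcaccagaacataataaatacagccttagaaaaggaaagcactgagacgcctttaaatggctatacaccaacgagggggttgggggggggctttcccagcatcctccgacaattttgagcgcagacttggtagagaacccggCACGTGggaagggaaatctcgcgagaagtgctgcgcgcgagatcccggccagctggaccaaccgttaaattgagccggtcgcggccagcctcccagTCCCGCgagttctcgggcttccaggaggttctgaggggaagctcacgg
Mael: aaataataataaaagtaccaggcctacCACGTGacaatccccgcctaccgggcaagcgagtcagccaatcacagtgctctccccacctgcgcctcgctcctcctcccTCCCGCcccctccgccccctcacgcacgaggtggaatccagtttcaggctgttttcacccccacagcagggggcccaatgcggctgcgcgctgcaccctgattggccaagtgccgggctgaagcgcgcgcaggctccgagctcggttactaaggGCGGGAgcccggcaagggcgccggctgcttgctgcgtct
Sycp3: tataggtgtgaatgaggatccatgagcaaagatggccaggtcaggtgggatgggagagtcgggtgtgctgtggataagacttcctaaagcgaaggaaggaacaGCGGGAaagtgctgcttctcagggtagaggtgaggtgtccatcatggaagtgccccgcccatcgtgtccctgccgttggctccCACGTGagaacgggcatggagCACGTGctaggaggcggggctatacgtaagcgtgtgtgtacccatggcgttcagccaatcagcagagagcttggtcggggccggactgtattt
Tdrd1: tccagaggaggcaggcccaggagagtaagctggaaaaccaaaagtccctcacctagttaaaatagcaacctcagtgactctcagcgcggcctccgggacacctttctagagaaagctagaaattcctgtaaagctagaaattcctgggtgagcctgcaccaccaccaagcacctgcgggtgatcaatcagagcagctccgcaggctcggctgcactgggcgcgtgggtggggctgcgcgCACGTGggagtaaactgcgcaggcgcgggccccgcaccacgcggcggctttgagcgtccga

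In the RNA-binding group, Dazl encodes a protein that binds the 3′ ends of messenger RNAs and promotes their translation in germ cells. The gene lies on the minus strand at chr17:50279395-50293636. Its highest TSS peak had a deposited signal of 123 in replicate 1 and 76 in replicate 2. Both values were above the median of all genes with a TSS peak, 112 in replicate 1 and 68 in replicate 2. They stood at the 67.6th percentile of these genes in replicate 1 and the 64.9th in replicate 2. The signal is the authors' own value with no stated normalization, so it is ranked within a replicate and not averaged across replicates.

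This strong peak did not lie at the 5′ end of the gene. It lay at an inner start site, position 50292892, that is 744 bp inside the gene and belongs to a single annotated protein-coding transcript. The 150 bp peak was at 50292756 to 50292905 in replicate 1 and at 50292816 to 50292965 in replicate 2. It covered the inner start site in both. The outer start site, at position 50293636, had peaks of 25 in replicate 1 and 19 in replicate 2. Another shared site, between genes and 1574 bp before the 5′ end, had signals of 15 and 11. Around Dazl the inner site was thus the strongest of 3 neighbouring shared sites in each replicate.

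The inner site held 24 CpG in 210 bp at a GC content of 76.2%, and the outer site held 25 CpG in 230 bp at 69.6%. The site before the gene held 5 CpG in 270 bp at 45.6%. The observed to expected CpG ratio, which corrects the CpG count for base composition, was 0.858 at the inner site, 0.927 at the outer site and 0.359 at the site before the gene. The inner site had 1 TCCCGC and no CACGTG, and the outer site had neither.

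Hotspots, the authors' wider regions of raised cutting, covered the inner Dazl start site in both replicates. In replicate 1 a single hotspot of 4445 bp held both start sites. In replicate 2 a hotspot of 1124 bp, at chr17:50292511-50293634, held the inner one and ended just short of the outer one. These widths stood at the 99.99th percentile of all hotspot widths in replicate 1 and the 94.8th in replicate 2. Both had a −log10 q-value of 100, the ceiling of the deposited values.

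**Figure D1:**
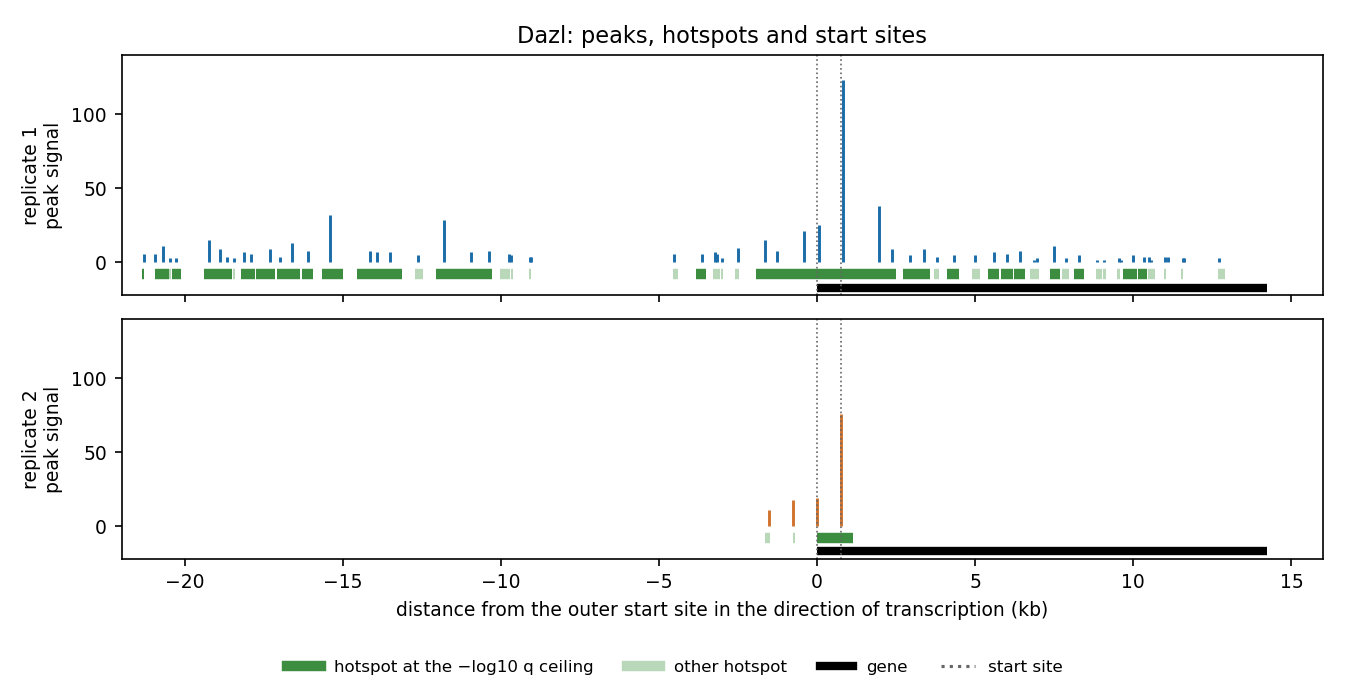
Peaks (vertical lines, deposited signal on the y axis) and hotspots (green bars) around Dazl in replicate 1 and replicate 2, by distance in kb from the outer start site. Dotted lines mark both start sites. The tallest line, 123 in replicate 1 and 76 in replicate 2, stands at the inner one, and small lines cover the gene body in replicate 1 and not in replicate 2.

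The replicates differed over the rest of Dazl. Replicate 1 had 30 peaks in the gene and replicate 2 had 2. Most of the replicate 1 peaks formed a run of 27 at chr17:50281956-50291765, over 9.81 kb, with a median signal of 4 and a range of 2 to 38. Replicate 2 had no peak in that stretch. Of the 22 hotspots over the run in replicate 1, 10 were at the −log10 q ceiling. A second run of 11 peaks covered the start sites and the stretch before them, and 2 more runs of 11 peaks lay farther before the gene, at chr17:50302596-50307865 and chr17:50308976-50312945, with no replicate 2 peak in either.

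A run is defined here as at least 10 peaks of a replicate with starts at most 1000 bp apart, a definition made after the data were seen. Runs of this kind held 67.4% of the 89 replicate 1 peaks in the Dazl span, against 19.7% of all peaks of replicate 1. They held none of its 20 peaks in replicate 2, where 29.5% of all peaks lay in runs. The median signal of the replicate 1 peaks outside the runs was 11, where all peaks of replicate 1 had a median of 18. For the replicate 2 peaks of the span it was 17, where all peaks of replicate 2 had a median of 8. Cutting in this stretch of replicate 1 was thus listed over most of the gene, and whether this belongs to the cells or to the library was not tested. The strong inner peak was present in both replicates.

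Ddx4, also known as Vasa, encodes an RNA helicase of germ granules. It lies on the minus strand at chr13:112598333-112652475 and has start sites at 112652475 and 112652301. No peak of either replicate lay within 500 bp of them. The nearest peak of replicate 1 was 3696 bp away in an intron, with a signal of 11. The nearest of replicate 2 was 8181 bp away at the promoter of the neighbouring gene Slc38a9, which encodes a lysosomal amino acid transporter. That promoter, 8141 bp from Ddx4 by its nearest edge, had signals of 132 in replicate 1 and 60 in replicate 2. A run of 11 weak peaks with a median signal of 6 lay in the Ddx4 introns in replicate 1, and replicate 2 had no peak there. The Ddx4 promoter shown above had 38 CpG in 300 bp, a CpG ratio of 0.978. The Dazl sites are shorter stretches, so their ratios are not set against this one. Over 500 bp on either side of a start site, the ratio was 0.753 and 0.742 at Ddx4. It was 0.823 at the inner Dazl start site and 0.734 at the outer one.

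Mael encodes a piRNA pathway protein of the germ granules and was closed as well. It lies on the minus strand at chr1:166201201-166238747. The nearest replicate 1 peak to a Mael start site was 14629 bp away with a signal of 15, and the nearest of replicate 2 was 3739 bp away, in an intron, with a signal of 7. The 37547 bp of the gene held 1 peak in replicate 1 and 5 in replicate 2, and no shared site. In the same span, its neighbour Ildr2 had a promoter peak of 94 in replicate 1 and 54 in replicate 2. An Ildr2 intron, at chr1:166282776-166282945, held the strongest site of the span with 133 in replicate 1 and 79 in replicate 2.

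Tdrd1, which encodes a Tudor domain protein that binds piRNA pathway proteins, was the only one of the 10 genes on which the replicates disagreed. It lies on the plus strand at chr19:56826209-56870012. A replicate 1 peak at 56826136 to 56826285 had a signal of 40, the 9.07th percentile of TSS signals in that replicate. It covered the first start site and lay over a hotspot of 195 bp with a −log10 q-value of 2.93. The peak also covered the CACGTG of the Tdrd1 sequence above, which begins 11 bases before the start site. The nearest replicate 2 peak was 3864 bp away, at the promoter of the neighbour Ccdc186. That promoter had signals of 131 in replicate 1 and 92 in replicate 2 at chr19:56822176-56822345. A separate Tdrd1 start site, 4503 bp inside the gene, had no peak in either replicate.

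Sycp1 and Sycp3 encode parts of the synaptonemal complex, which holds paired chromosomes together in meiosis. Sycp3 was open by the rule. Its shared site lay at chr10:88459976-88460225, with signals of 14 in replicate 1 and 11 in replicate 2. These values stood at the 1.86th and 3.53rd percentiles of all TSS signals of their replicates. The site was off the start sites, with its nearest edge 312 bp from the closest one, so it is counted with windows of 500 and 1000 bp and not with one of 150 bp. The hotspots there were 174 bp wide in replicate 1 and 200 bp wide in replicate 2, with −log10 q-values of 1.97 and 1.90, near the lowest listed value of 1.30. The promoter shown above, with both of its CACGTG at 64 and 43 bases before the start site, had no peak of its own in either replicate.

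Sycp1 lies on the minus strand at chr3:102818499-102936100 and had no TSS peak. A replicate 2 peak with a signal of 8 lay 756 bp before its start site, outside the window, and the nearest replicate 1 peak was 9836 bp away with a signal of 14. The nearest shared site was 34016 bp away, the farthest for any of the 10 genes. The gene is 117602 bp long and held 1 shared site, in an intron at chr3:102842496-102842665, with signals of 19 and 9. Sycp1 was also the only gene of the 10 whose nearest protein-coding neighbour, Nr1h5, was closed.

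Stra8, which encodes a retinoic acid induced factor needed for entry into meiosis, had no peak at any of 3 start sites. It lies on the plus strand at chr6:34920163-34939344. A replicate 1 peak of 55 lay 1066 bp from a start site in an intron, with no partner in replicate 2. A shared intron site at chr6:34927296-34927445 had signals of 65 in replicate 1 and 40 in replicate 2, 6286 bp from the nearest start site. Both values are above those at the outer Dazl start site, so the body of Stra8 was not without accessible DNA.

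Dppa3, also known as Stella, encodes a maternal factor that protects DNA in the early embryo from demethylation and marks primordial germ cells. It lies on the plus strand at chr6:122626410-122630272, close to Gdf3 and Nanog. The nearest peaks were weak and not shared, a replicate 1 peak of 21 at 1186 bp and a replicate 2 peak of 14 at 2226 bp. The nearest shared site was past the gene, 7166 bp from the start site, with signals of 27 and 18. The strongest site of the span, at chr6:122669516-122669685 between Dppa3 and Nanog, had signals of 94 in replicate 1 and 55 in replicate 2. Nanog itself had a TSS peak of 11 in replicate 2 and none in replicate 1.

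Figla and Zp3 are oocyte genes, for a transcription factor that switches on the egg coat genes and for a protein of that coat, the zona pellucida. Figla lies at chr6:86016171-86020996 on the plus strand and held no peak of either replicate anywhere in its 4826 bp. The nearest shared site, just past its 3′ end at chr6:86021076-86021245, had signals of 56 in replicate 1 and 26 in replicate 2. Zp3 lies at chr5:135980099-135988624 on the plus strand. Its nearest shared site was in an intron at chr5:135982456-135982625, 2357 bp from the start site, with signals of 75 in replicate 1 and 47 in replicate 2. That site held no CpG in 170 bp.

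**Figure D2:**
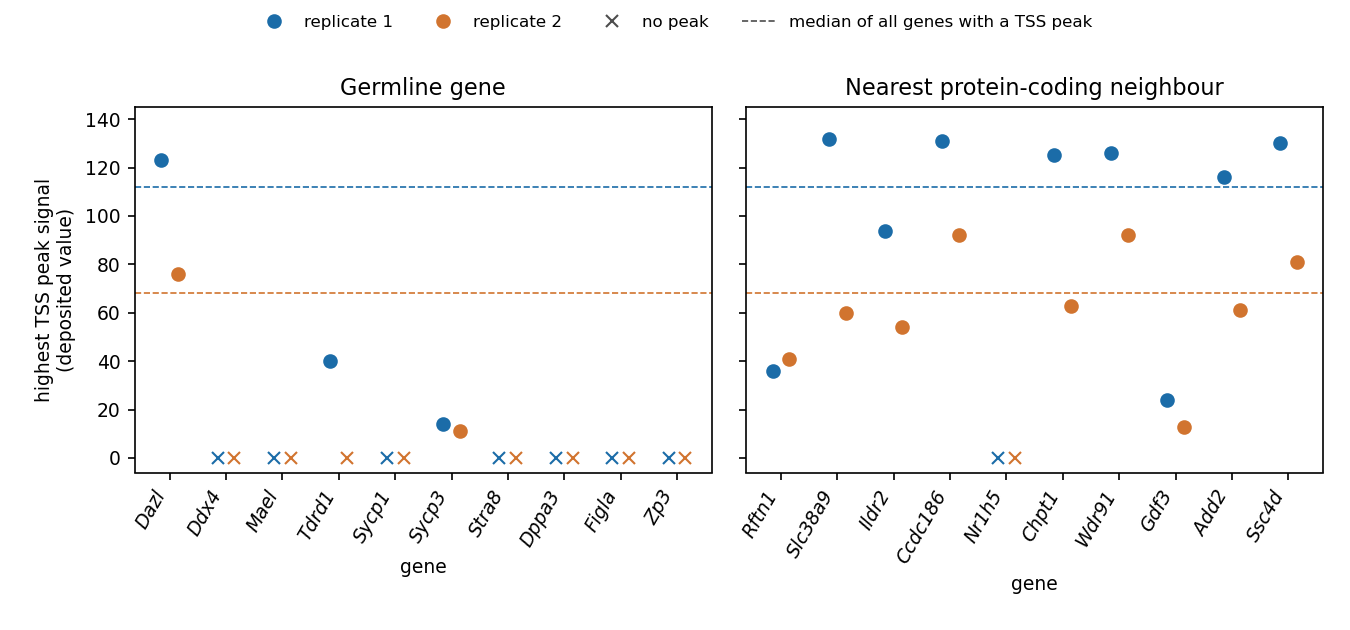
Highest deposited peak signal within 500 bp of a start site for each of the 10 germline genes (left) and for the protein-coding gene with the nearest start site (right), with replicate 1 in blue, replicate 2 in orange and crosses for no peak. Dashed lines are the medians of all genes with a TSS peak, 112 and 68. Dazl stands above both lines, Sycp3 has 14 and 11, and 9 of the 10 neighbours have a peak in both replicates, against 65.5% of all genes.

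The count of open genes depended on the definition of a start site peak. With a window of 150 bp the count was 1 of 10, Dazl, against 59.1% of all genes. With the stronger 50% of the peaks of each replicate it was again 1, Dazl, against 65.1% of all genes. With hotspots in place of peaks it was 2, Dazl and Sycp3, against 65.9% of all genes. Replicate 1 alone gave 3, with Tdrd1 added, against 68% of all genes, and replicate 2 alone gave 2 against 69.5%. Dazl was open under each of these definitions.

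Closed genes were found among those with CpG-rich start sites as well as among those with few CpG. The CpG ratio was taken over 500 bp on either side of the 5′ end, and genes were placed in 10 deciles of it. Ddx4 stood at 0.742 in decile 8, and Dazl at 0.734, Sycp1 at 0.721, Mael at 0.693 and Tdrd1 at 0.672 in decile 7. Of these 5 genes in the upper deciles, from 7 to 10, 1 was open (20%), against 14 of 20 other germline genes (70%) and 8508 of 8702 genes in all (97.8%). Sycp3, at 0.652 in decile 6, belongs to a decile in which 93.5% of genes were open.

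The remaining genes had fewer CpG. Dppa3 at 0.443 and Zp3 at 0.415 fell in decile 5, in which 81.25% of genes were open. Figla at 0.309 fell in decile 4, with 46.1% open, and Stra8 at 0.256 in decile 3, with 24.3% open. The 5′ end of the gene record was not the densest stretch for these last genes. Stra8 reached a ratio of 0.522 at another start site and Figla 0.433 at its basic transcript. With the highest ratio over the start sites of each gene, Stra8 moved to decile 5 of that ordering, with 88.2% of genes open. Figla stayed in decile 4 and Dppa3 and Zp3 moved to it, with 52.7% open. Mael and Tdrd1 moved to decile 6, with 95.9% open, and Ddx4 to decile 7, with 97.8%, where Sycp1 stayed. Figla was thus among genes that are often not open in this tissue, while Ddx4, Sycp1, Mael and Tdrd1 stood among genes of which at least 95.9% were open in either ordering.

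**Figure D3:**
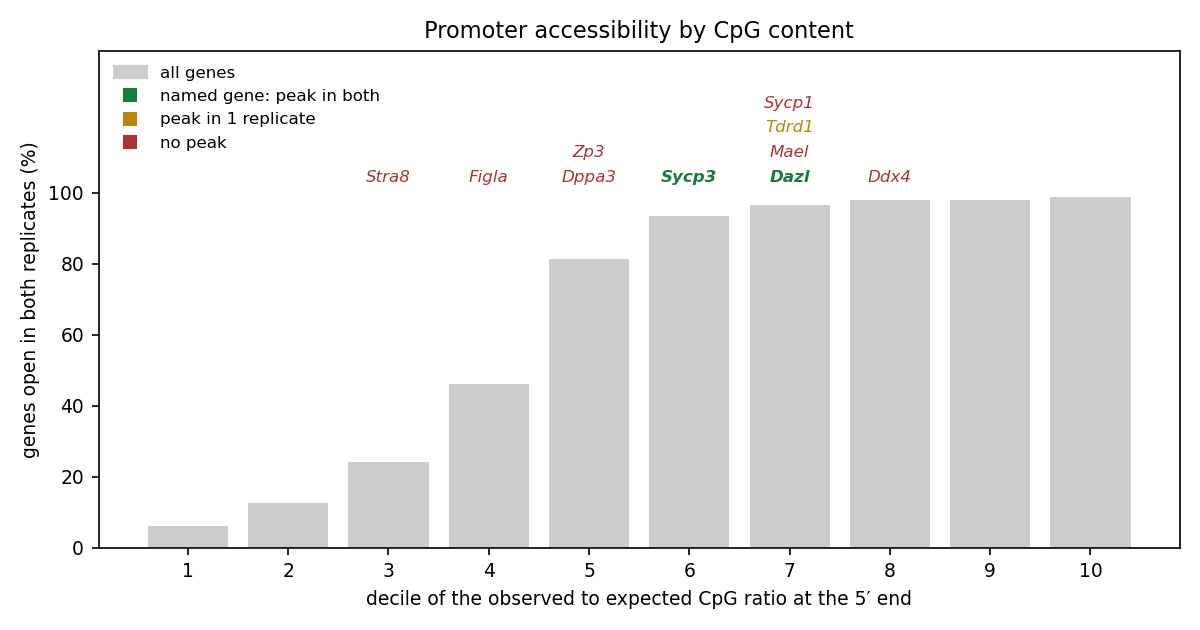
Share of all protein-coding genes open in both replicates (grey bars, %) in each decile of the CpG ratio at the 5′ end, with the 10 germline genes written above their decile in green (peak in both replicates), yellow (peak in 1) or red (no peak). The bars climb to 98.8% in decile 10, while Ddx4, Sycp1 and Mael stand in red over bars of 96.5% or more.

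A RefSeq promoter was matched for 9 of the 10 genes, all but Dppa3, and for 16433 genes in all. CACGTG was in the promoters of 6 of these 9 genes, Ddx4, Mael, Sycp1, Sycp3, Tdrd1 and Zp3, against 13 of 68 other germline genes and 9.22% of all genes. TCCCGC was in 5 of the 9, Ddx4, Mael, Sycp1, Sycp3 and Zp3, against 17 of the 68 other germline genes and 29.4% of all genes. No base was shared between a CACGTG and a TCCCGC in these promoters. CCAAT was in 5 of the 9 against 42.2% of all genes, and TATAAA was in 1, Tdrd1, against 14.3%. The Tdrd1 TATAAA lay in the window of the start site 4503 bp inside the gene, not in the promoter shown above. The Dazl window held neither CACGTG nor TCCCGC. It lies at the outer start site and does not cover the strong inner site, which held 1 TCCCGC and no CACGTG. A match is a run of letters and does not show that a factor was bound.

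Most promoters with these letters were open in the midbrain. Among all genes, 84.2% of those with CACGTG were open and 65.5% of those without it. For TCCCGC the shares were 93.7% and 56.3%. Both sequences contain CG, and open genes were more frequent in the higher CpG deciles. These shares were not adjusted for CpG content. Both sequences together were found in 608 genes, of which 575 were open (94.6%), 14 had a peak in 1 replicate and 19 had none. The 5 of the 10 germline genes with both sequences were Ddx4, Sycp1, Mael, Zp3 and Sycp3, and Sycp3 alone was open. Ordered by CpG ratio, the first 5 of the 19 genes with both sequences and no peak were Ddx4, Sycp1, Hormad1, Mael and Tex12. Of the 19, only 4 were among the 10 genes and 2 among the other germline genes. The others were on no germline list used here. Hormad1 and Tex12 encode meiotic chromosome proteins and came from the list of other meiosis genes. Ddx25, Stag3 and Syce2 were germline genes with both sequences and an open promoter.

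The surroundings of the 10 genes were not closed. From 100 kb before to 100 kb after each gene, the spans held 124 sites shared by both replicates. The median was 4.95 shared sites per 100 kb, with a range of 1.97 around Ddx4 to 9.11 around Zp3. The median over the same spans of all protein-coding genes was 5.29, with quartiles of 2.68 and 8.65. The total depended on the requirement for both replicates, since the spans held 385 peak regions in replicate 1 alone and 552 in replicate 2 alone.

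Of the 124 shared sites, 31 lay at promoters, 52 in introns, 35 between genes and 6 in exons. The germline genes owned 3 of the 31 promoter sites, at Dazl and Sycp3, and the other 28 belonged to neighbours. The median signals of the 3 own sites were 25 in replicate 1 and 19 in replicate 2, against 111 and 64.5 for those of the neighbours. The 32 neighbouring genes with a start site in a span were open in 23 cases (71.9%), had a peak in 1 replicate in 2 cases and had none in 7. Of all protein-coding genes 65.5% were open, so the share of the neighbours was near that of genes in general. The nearest neighbour was open for 9 of the 10 genes. The strongest peak of the span was at a neighbour's promoter in both replicates around Ddx4, Sycp1, Sycp3, Tdrd1, Stra8, Figla and Zp3, where a site between genes tied with it at 133 in replicate 1. It was at the gene's own promoter only around Dazl.

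**Figure D4:**
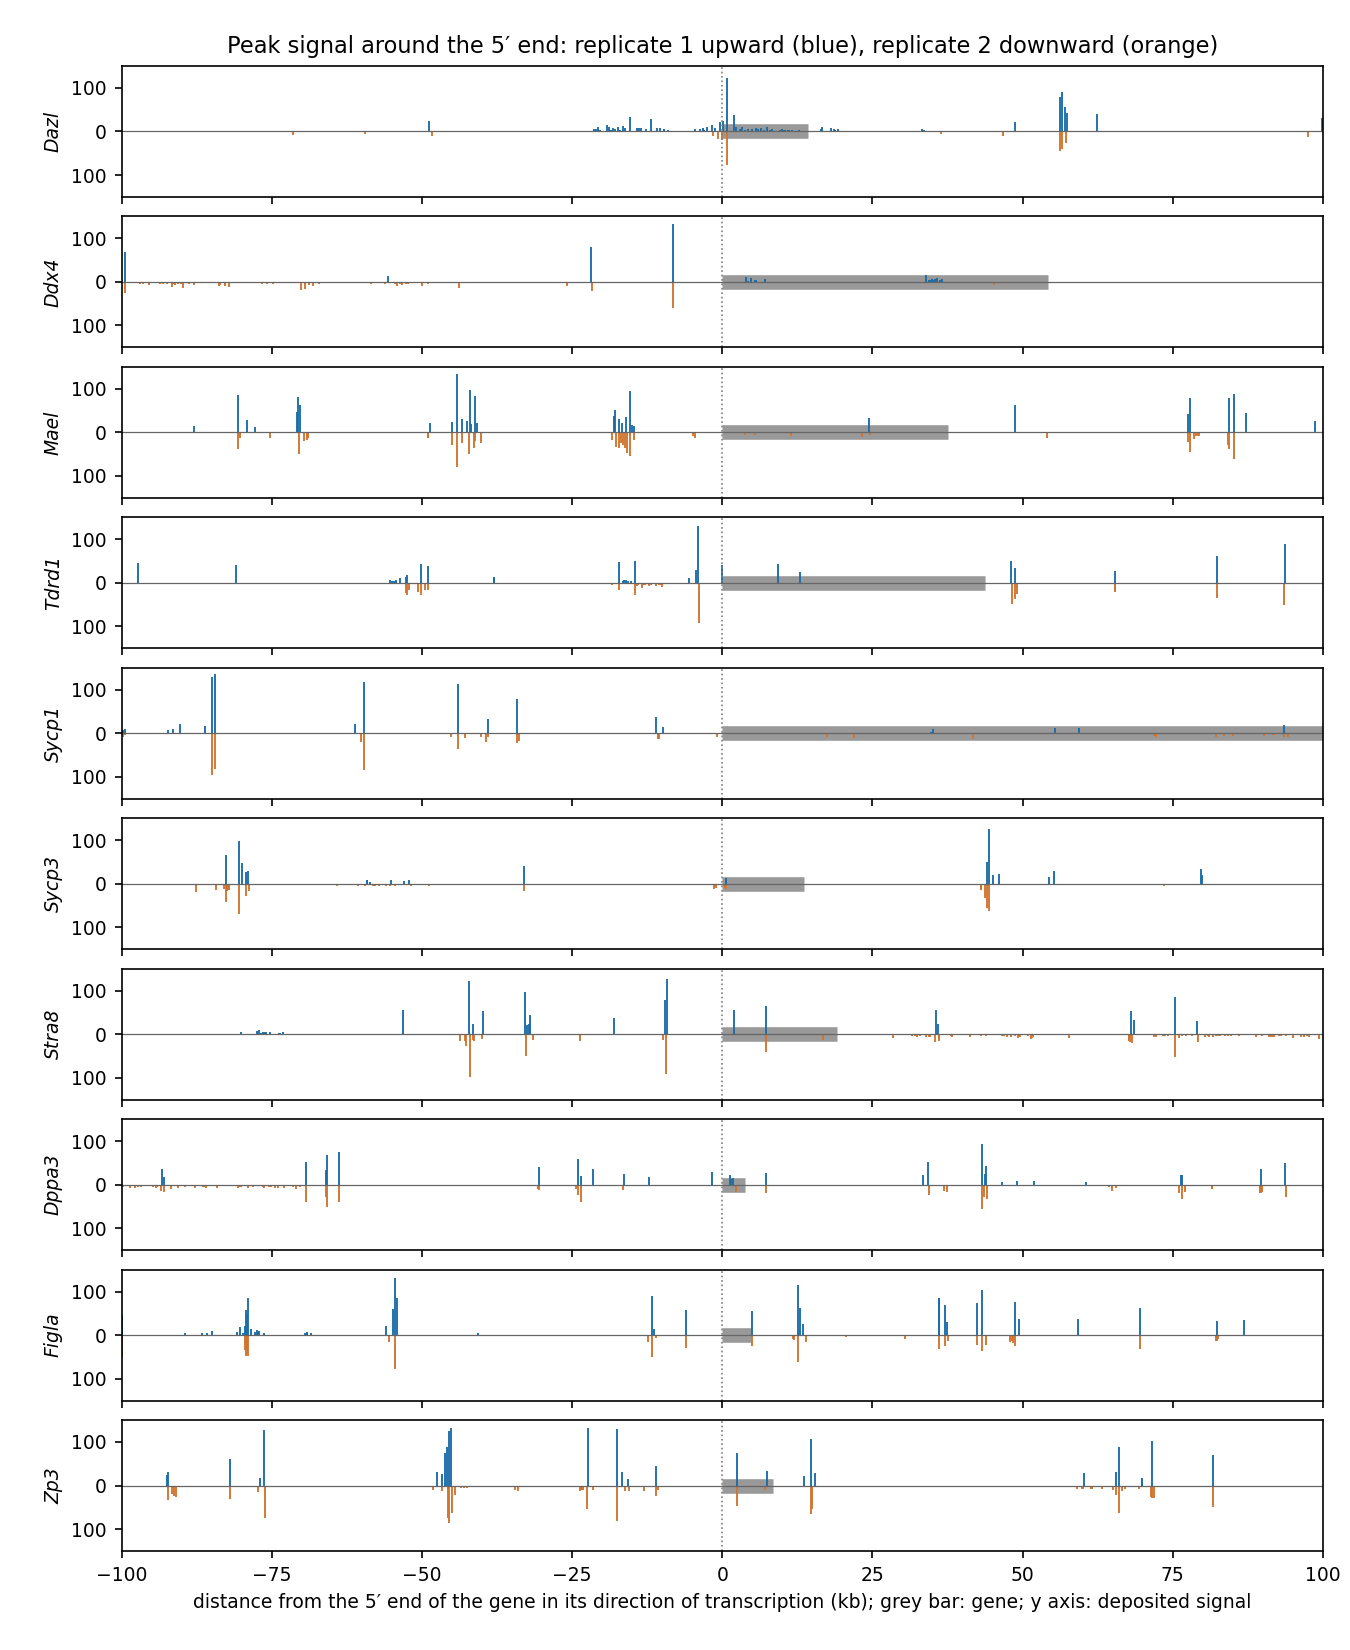
Deposited peaks within 100 kb of the 5′ end of each of the 10 genes, by distance in kb in the direction of transcription, with the signal of replicate 1 drawn upward in blue and of replicate 2 downward in orange; grey bars are the genes. Tall lines in both directions stand within 500 bp of a start site of the gene itself only for Dazl. Lines in introns near position 0 have 75 and 47 at Zp3, and 65 and 40 at Stra8. The tall lines near Ddx4 and Tdrd1 are the promoters of Slc38a9 and Ccdc186.

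The 7 genes with no TSS peak had a median distance of 7166 bp to the nearest shared site, with a range of 2357 bp at Zp3 to 34016 bp at Sycp1. For all 6106 genes without a TSS peak the median was 25800 bp, with quartiles of 8112 and 103848 bp. Of the 7, 71.4% had a shared site within 10 kb, against 29.0% of all genes without a TSS peak. The median of the 7 was below the lower quartile of all closed genes, and this difference was not tested.

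Runs of weak peaks were not particular to Dazl. In replicate 2 they were found around Ddx4 (15 and 22 peaks), Stra8 (11 and 12), Tdrd1 (13) and Dppa3 (19 and 29). In replicate 1 they were found in Ddx4 (11) and around Figla (13). The Figla run had a median signal of 11 but a highest signal of 85, and replicate 2 had 4 peaks there. Around Dppa3 runs made up 46.9% of the 98 replicate 2 peaks, and replicate 1 had 30 peaks in that span. The replicate with more peaks changed from gene to gene, 89 in replicate 1 and 20 in replicate 2 around Dazl, against 27 and 67 around Ddx4.

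Among the other germline genes, 29 of 90 were open (32.2%), 17 had a peak in 1 replicate and 44 had none. Open genes made up 13 of 24 meiosis genes, 6 of 19 piRNA pathway genes, 5 of 11 primordial germ cell genes, 3 of 18 spermatid genes and 2 of 18 oocyte genes. The germline lists thus ran from below the share of the 10 genes to 54.2% for the meiosis genes, against 65.5% of all genes. The CpG deciles of the meiosis genes had a mean of 82.9% open genes. The means were 71.4% for the piRNA, 67.4% for the primordial germ cell, 50.03% for the oocyte and 38.3% for the spermatid genes. Each list was thus below the mean of its deciles. The oocyte and spermatid lists, with the lowest shares, also had the lowest decile means. These differences were not tested. In 27 of the 29 open genes the strongest peak lay within 500 bp of no other protein-coding start site, as at Dazl and Sycp3. The exceptions were Stag3 and Smc1b.

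Open genes are named here by the mean of their percentiles of TSS signal over the replicates, an order that need not hold in each replicate. The highest meiosis genes were Msh5, a mismatch repair homologue needed for crossovers, with 138 in replicate 1 and 98 in replicate 2, and Prdm9, the histone methyltransferase that places recombination hotspots, with 137 and 89. Both lie on chromosome 17, as Dazl does. In the piRNA pathway they were, by the same order, Tdrd7, with 131 and 105, and Tdrkh, with 134 and 71, both for Tudor domain proteins as Tdrd1 is. Hormad1 and Majin among the meiosis genes, and Asz1 and Fkbp6 among the piRNA genes, had no TSS peak.

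In the oocyte list the open genes were Lhx8, a homeobox gene with 55 in replicate 1 and 77 in replicate 2, and Ooep, with 57 and 24. Bmp15 and Gdf9, which encode growth factors of the oocyte, had none, as Figla and Zp3 had none. Zpbp, with 99 and 75, and Spaca1, with 26 and 28, had the highest mean percentiles of the spermatid list, while Acr and Acrv1 were closed. Kit, a receptor of several stem and progenitor cells, and Tfap2c had those of the primordial germ cell list, with 123 and 73 and with 77 and 72, while Dppa4 and Dppa5a were closed as Dppa3 was. Lhx8, Kit and other genes of these lists are also used outside the germline.

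The genes of these lists whose percentiles of TSS signal were nearest to those of Dazl were Kit, Mei4 and Tdrkh. Likeness was the sum of the differences in percentile over the 2 replicates, which was 6.13 points for Kit, 29.1 for Mei4 and 33.1 for Tdrkh. Kit had the replicate 1 signal of Dazl, 123, and a replicate 2 signal of 73 against 76 at Dazl. Mei4, which takes part in the formation of meiotic DNA breaks, had 120 and 63.

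**Figure D5:**
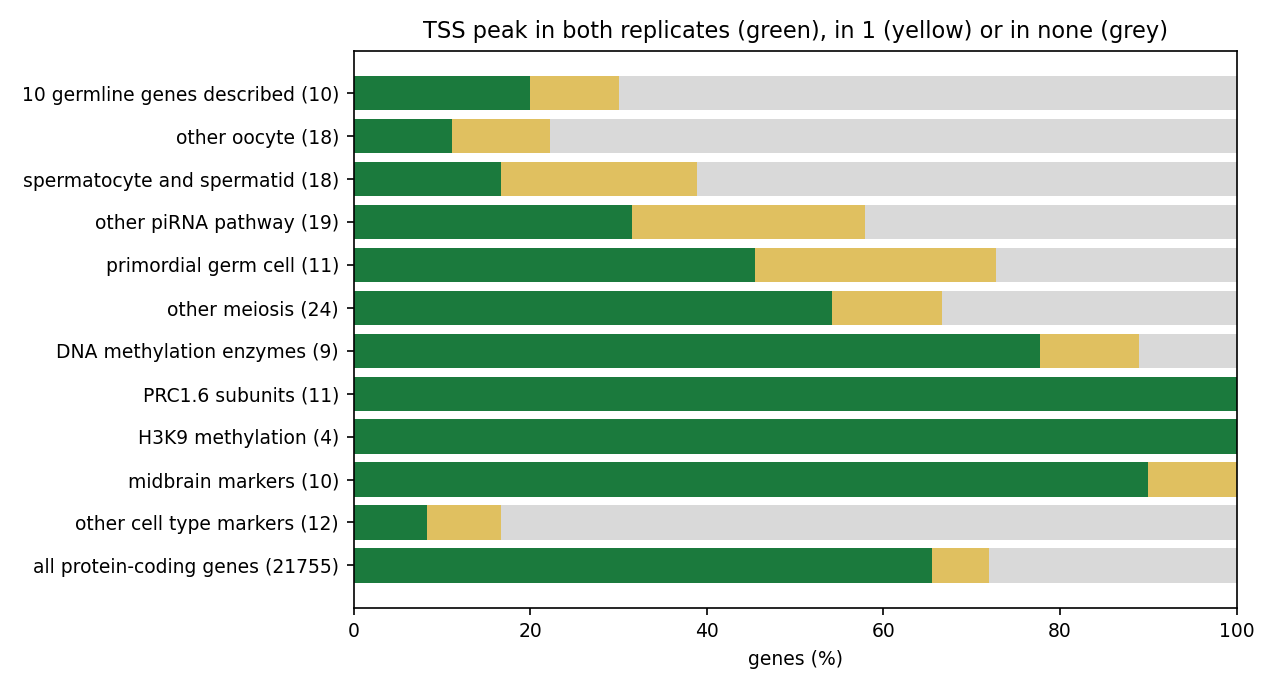
Share of genes (%) with a TSS peak in both replicates (green), in 1 replicate (yellow) or in none (grey), with the 10 germline genes first, then the other lists and all protein-coding genes, and the number of genes in brackets. The green share is 20% for the 10 genes, 54.2% for the other meiosis genes, 100% for the PRC1.6 subunits and 65.5% for all genes.

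Genes for the machinery known to keep germline promoters silent, listed here together with genes for DNA demethylation, were mostly open. All 11 listed subunits of PRC1.6 were open, where their CpG deciles had a mean of 98.1% open genes, so the count is that of most promoters of like CpG content. Rnf2, with 135 in replicate 1 and 93 in replicate 2, and Cbx3, with 135 and 92, had the highest mean percentiles. All 4 H3K9 genes were open as well, against a mean of 76.8% in their deciles, with Ehmt1 at 133 and 104 and Trim28 at 119 and 90. Trim28 lowered that mean, since its 5′ end fell in decile 2, with 12.6% of genes open. Of 9 genes for DNA methylation and demethylation, 7 were open, against a mean of 57.0% in their deciles. Low values such as that of Dnmt1, in decile 1 with 6.07% open, lowered this mean too. For both lists the deciles rest on the 5′ end of the gene record, and CpG content at other start sites was not compared. The highest mean percentiles were those of the maintenance methyltransferase Dnmt1, at 121 and 91, and its partner Uhrf1, at 128 and 79. Dnmt3l, a cofactor of methylation in germ cells, had a TSS peak of 6 in replicate 2 alone, and Tet1, which oxidizes methylated cytosine, had none. An open promoter is not a measure of protein or of its binding at the 10 genes.

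The midbrain label was set beside markers. Open promoters were found for 9 of 10 midbrain genes, among them Pou3f2 with 132 in replicate 1 and 91 in replicate 2, Sox2 with 134 and 83 and the midbrain gene En1 with 104 and 58. Lmx1b had 37 in replicate 2 alone. The CpG deciles of these markers had a mean of 97.2% open genes, so this count is near that of other genes of like CpG content and does not single out midbrain. Of 12 markers of red cells, microglia, endothelium and mesenchyme, 1 was open, Twist1 with 71 and 56, and Pecam1 had 12 in replicate 1 alone, against a mean of 35.6% open in their deciles. No list of germ cell markers could be used for such a check, because the germline genes are the ones described. In tissue, a peak from a few cells with a fully open site and one from many cells with a partly open site cannot be told apart.

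The 2 lists differed in size. Replicate 1 had 306572 deposited peaks with a median signal of 18, and replicate 2 had 455245 with a median of 8. Of 583597 regions made by merging both lists, 89717 (15.4%) held a peak of each. Read depth is unknown, so a start site with no peak was not called open at the depth of these libraries and is not shown to be closed in every cell. Masked repeats made up 4.10% of the 5′ window at Dazl and 32.9% at Dppa3, the extremes of the 10 genes, against a median of 9.49% for all genes.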

How the data were processed

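DNase-seq peaks and hotspots of 2 biological replicates of E11.5 midbrain were used as deposited on mm10, per the labels. The peaks are listed per replicate, and their signal, as deposited by the authors, is a whole number from 1 to 148 in replicate 1 and from 1 to 130 in replicate 2, with no stated normalization. The hotspots carry −log10 q-values, as deposited, from 1.30 to 100. The aligner and peak caller were not given in the sources used here. No read totals are given, so depth is unknown and no counting interval is given.

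Peaks on chromosomes 1 to 19 and X (305818 in replicate 1 and 454408 in replicate 2) were compared with the start sites of protein-coding genes (GENCODE vM21, basic transcripts), and sequence was read from GRCm38.p6, the assembly that mm10 is made from. Peaks of the replicates that overlapped by at least 1 bp were merged into shared sites. A site was placed at a promoter within 500 bp of a start site. Promoter windows came from RefSeq, and letters were searched on both strands, in any window of a gene. The overlap code was tested on simulated data. Python 3.11.15, numpy 2.4.6 and pandas 2.3.3 were used.

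Named genes were the 10 genes, their nearest neighbours, the 2 open genes of each list whose percentiles of TSS signal averaged highest over the replicates, up to 2 closed genes of each list in alphabetical order, and the 3 genes most like Dazl. Other genes were named after their values were seen: Stag3, Smc1b, Ddx25, Syce2, Tex12, En1, Lmx1b, Pecam1, Dnmt3l and Nanog. The genes and lists were chosen with earlier results of these data known. The labels call the replicates biological, but with 1 group no test was possible.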

Additional observations from a re-analysis of the deposited data

How the results depend on the processing

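The number of the 10 germline genes that were open was 2 with start sites from all transcripts, with the 5′ end of the gene record, with a window of 1000 bp and with hotspots, and 1 (Dazl) with a window of 150 bp and with the stronger 50% of peaks. Single replicates gave 2 to 3. The count from hotspots was 2 with a window of 1000 bp, 1 with one of 150 bp, and 2 to 3 in single replicates. Other germline genes numbered 29, with 35 to 40 in single replicates and 23 to 35 under the other settings. Open neighbours numbered 23, with 23 to 25 in single replicates and 21 to 23 otherwise. The 124 shared sites of the spans became 73 with 50 kb on either side, 115 with the stronger peaks and 97 with an overlap of at least 75 bp, and a single replicate gave 385 to 552 peak regions. With the highest CpG ratio over the start sites of a gene, an alternative chosen after seeing the data, 3 of the 10 genes fell in deciles 7 to 10 and 1 of them, Dazl, was open, against 98.7% of all genes there. Unknown depth limits all statements on missing peaks. No paired analysis was possible because there is 1 group.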
